A study of Cavia porcellus with 30 samples.

Results

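Of 25824 guinea pig transcripts, 17 formed a set of late rises at the high dose. Their mean level in the kidney rose past a set limit 33 h after the high dose of mercuric chloride. It stayed within a narrow limit in the other 3 treated groups. The members were chosen by deposited TPM, a transcript level scaled for length and library size, averaged over the 5 animals of each group. L was the log2 of the treated mean plus 1 TPM over the vehicle mean of the same time plus 1 TPM. A member had an L of at least 1 with the high dose at 33 h and an absolute L under 0.3 in the other 3 treated groups, which were both doses at 9 h and the low dose at 33 h. It also had a mean of at least 0.5 TPM over the 10 vehicle animals, a level that 17560 transcripts reached. The means of all 6 groups were thus used in the choice, and every comparison between groups is given here as a description of the members. Since L adds 1 TPM to both means, it understates the change of transcripts with low levels.

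The study asked how the kidney responds to 2 doses of mercuric chloride at an early and a later time. The animals were male Hartley guinea pigs bought at 4 weeks of age, which carried a jugular vein catheter implanted after 7 days of acclimation. Each received a single intraperitoneal injection of saline (the vehicle, 1 ml/kg), the low dose of 1.00 mg/kg or the high dose of 1.50 mg/kg mercuric chloride, and 5 animals of each treatment were sampled 9 or 33 h later, after a period without food. The frozen whole kidney was powdered, and the poly-A RNA of 30 animals was sequenced. Animal numbers are those at the end of the sample titles.

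Mercuric chloride is an inorganic mercury salt that binds thiol groups and accumulates in the epithelium of the proximal tubule, which it injures. Acute kidney injury of this kind is known to involve the death and shedding of tubule cells, signals that draw immune cells, and later the dedifferentiation and division of surviving epithelial cells. In the RNA of a whole kidney, a change in the number of cells of one type and a change in RNA per cell cannot be told apart. The files identify transcripts by Ensembl identifiers only, and the gene table used here held no Ensembl identifiers. The study's supplement, as far as it could be read, paired 2 of the members with an Ensembl gene identifier. No member was therefore matched to a gene symbol, the roles of the members are not given, and the kidney and cell type marker genes could not be looked up to check the tissue. At most 2 members are named by identifier, and the others by their length in bases.

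The libraries held between 23134713 and 36072327 estimated counts. Within groups, the log2 CPM values of pairs of animals correlated across transcripts with Pearson's r of 0.979 to 0.991 over 60 pairs. In animal 59 of the 9 h vehicle group, 1 transcript took 13.7% of all counts, against at most 4.97% in any other animal. Left out of the means, this animal changed the number of transcripts that met the rule from 17 to 24, which included all 17 members.

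The 9 h vehicle animals carry numbers in separate runs, 31 and 32 against 58 to 60, and differed in part along them. The library factors of edgeR (TMM) were 0.979 and 0.988 in animals 31 and 32 and 0.887, 0.819 and 0.966 in animals 58, 59 and 60. Over the 554 rises at the high dose and 33 h (L of at least 1) that were not members, the median log2 difference from the mean of all 5 was 0.24 and 0.14 in animals 31 and 32 and -0.18, -0.23 and -0.12 in animals 58 to 60. With only animals 31 and 32 as 9 h vehicle, 27 transcripts met the rule, 14 of them members, and the members' median L at 9 h was 0.04 at the low and 0.12 at the high dose. With only animals 58 to 60, 9 met it, 8 of them members, and the medians were 0.18 and 0.16. By library factor, animal 60 lay nearer to animals 31 and 32 than to animals 58 and 59. Over all 17560 transcripts the median difference from the mean of all 5 was 0.07 and 0.10 in animals 31 and 32. It was -0.12 and -0.10 in animals 58 and 59 and 0.02 in animal 60. The part of this split in the 9 h values was not tested.

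Of the 17560 transcripts, 571 (3.25%) reached an L of 1 with the high dose at 33 h, and the 17 members were 2.98% of those. Most of the 571 also had an L of at least 0.3 in another treated group. At 9 h, L was at or above 0.3 for 429 of them in low-dose kidneys and for 411 in high-dose kidneys, and 482 reached it after 33 h of the low dose. Such an L is not a call, and at 33 h both doses share the vehicle mean. Both doses at 9 h left 82 of the 571 (14.4%) within the limit. The limit at the low dose of 33 h then kept 17 of these 82. The group thus held the few transcripts of a larger set of rises that stayed within the limits in the other 3 treated groups.

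The limits passed through a continuous range of values. The member closest to the limit on the rise had an L of 1.002, and the nearest transcript outside it had 0.996. The member closest to the limit on the milder conditions had an absolute L of 0.297, and the nearest one outside had 0.301. Of the members, 9 had an absolute L of at least 0.25 in at least 1 of those groups. Of the other rises, 16 failed by having a largest value between 0.3 and 0.35.

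The members were low in the kidney of vehicle animals. Their median vehicle level was 0.836 TPM, against 3.59 TPM for the 571 rises and 9.05 TPM for the 17560 transcripts. Under 1 TPM lay 10 members (58.8%), compared with 15.9% of the rises and 8.72% of all. At low levels the added 1 TPM made the limits on the other treated groups easier to meet and the limit on the rise harder. The 2196-base member had a ratio of 1.69 with the low dose at 33 h, but an L of 0.297. The low levels are thus a description of the members, and the part of the added 1 TPM in them was not tested. In the kidneys given the high dose for 33 h, the member means ran from 2.46 to 49.4 TPM with a median of 4.15 TPM, and 13 of the 17 remained under 6 TPM. Lengths were between 384 and 4371 bases, with a median of 2196 bases for the members, 2046 for the rises and 2409 for all.

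**Figure D1:**
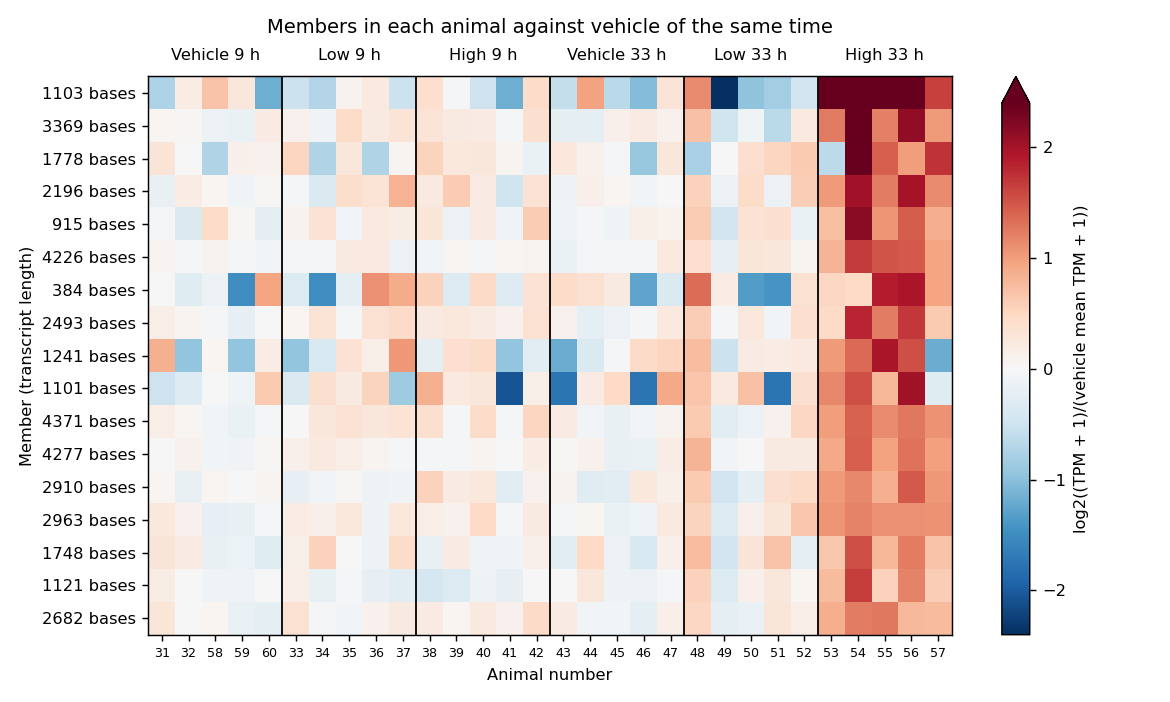
Heat map of the 17 members (rows, labelled by transcript length and ordered by L) in the 30 animals (columns, in 6 groups of 5). Colour gives the log2 of TPM plus 1 over the vehicle mean of the same time plus 1, with red for higher levels, and the darkest red also stands for values above the scale. The 5 columns of the high dose at 33 h are red for nearly all members, animal 48 of the low dose at 33 h is the next reddest column, and single pale or blue cells mark libraries in which a member was listed near 0.

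ENSCPOT00000032905.1 (1103 bases) had the largest L of the members, 2.44, and the highest member level with the high dose at 33 h. In the kidneys of the high dose at 33 h it stood at 51.2, 64.1, 49.3, 54.7 and 27.9 TPM in animals 53 to 57, from 543 to 1409 counts. The 5 vehicle animals of that time had 5.28, 17.1, 4.97, 3.50 and 10.5 TPM. Every high-dose animal was thus above every vehicle animal.

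The low dose at 33 h gave the widest relative spread of this transcript. Animals 48 to 52 had 19.4, 0.782, 3.77, 4.20 and 5.72 TPM. Animal 48 exceeded every vehicle animal of the same time, and animal 49 fell below all of them. The mean of the low dose, 6.78 ± 7.29 TPM (SD, n = 5), was below the vehicle mean of 8.29 ± 5.63 TPM, and the high-dose mean was 49.4 ± 13.3 TPM.

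At 9 h the transcript showed no such separation. Its means were 5.25 ± 2.97 TPM in vehicle animals, 4.32 ± 1.57 TPM in low-dose and 5.03 ± 2.45 TPM in high-dose animals (SD, n = 5 each). All 15 values of that time lay between 1.79 and 9.06 TPM, all below the lowest high-dose value at 33 h. In the quasi-likelihood fit of edgeR, with p-values adjusted by Benjamini-Hochberg over 19729 transcripts, the log2 fold change of the high dose against vehicle at 33 h was 2.52 (SE 0.399, adjusted p = 4.4e-04). Against the low dose at 33 h it was 2.79 (SE 0.604, edgeR adjusted p = 0.0129), and the effect at 33 h exceeded that at 9 h by 2.70 on the log2 scale (SE 0.667, edgeR adjusted p = 0.0101).

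ENSCPOT00000003644.3 (2910 bases) had the second highest level of the members in high-dose kidneys at 33 h and was picked with its values in view. Animals 53 to 57 had 20.6, 22.5, 18.3, 28.2 and 20.9 TPM. The vehicle animals of 33 h had 10.2, 7.63, 7.93, 11.7 and 10.6 TPM. Its lowest high-dose value was above the highest value of any other animal in the study, 15.4 TPM in animal 48 of the low dose.

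The other groups of this transcript lay closer together. Its low-dose animals at 33 h had 15.4, 6.68, 8.16, 12.8 and 13.7 TPM, of which 3 were above every vehicle animal and 1 was below all of them. At 9 h the means were 9.42 ± 0.71 TPM in vehicle animals, 8.83 ± 0.578 TPM in low-dose and 11.0 ± 2.36 TPM in high-dose animals (SD, n = 5 each). The log2 fold change at 33 h was 1.16 against vehicle (SE 0.134, edgeR adjusted p = 4.9e-05) and 0.88 against the low dose (SE 0.209, edgeR adjusted p = 0.0173). Between the doses at 9 h it was 0.34, and this was the 1 member with an unadjusted edgeR p under 0.05 there (0.0197, adjusted p = 0.993).

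**Figure D2:**
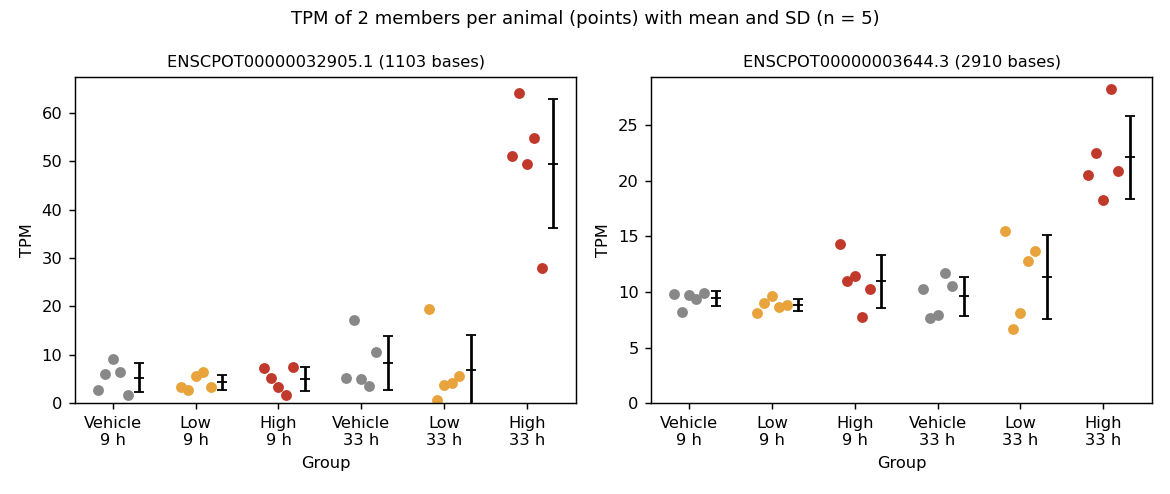
TPM of ENSCPOT00000032905.1 (left) and ENSCPOT00000003644.3 (right) in each animal (points) of the 6 groups, with the group mean and SD (bars, n = 5). The 5 high-dose animals of 33 h lie at 27.9 TPM or more on the left and at 18.3 TPM or more on the right, above all other animals in both panels, and the vertical axes start at 0, which cuts the lower bar of the low dose at 33 h on the left.

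The 2963-base member was the most even among high-dose animals. It had 11.2, 12.3, 11.4, 11.5 and 11.3 TPM with the high dose at 33 h, against 4.61, 5.01, 4.23, 4.39 and 5.90 TPM with vehicle. The low-dose animals of that time lay at 7.46, 3.63, 5.33, 6.17 and 8.16 TPM, all under the high-dose values, and 3 of them above every vehicle animal. Its log2 fold change of the high dose against vehicle was 1.21 (SE 0.0796, edgeR adjusted p = 1.6e-06), the smallest error of all members.

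The 4226-base and 4277-base members varied little among the animals of 9 h. The 4226-base transcript ran from 0.648 to 1.15 TPM over the 15 animals of 9 h, and from 0.656 to 1.17 TPM over the vehicle animals of 33 h. With the high dose at 33 h it stood at 2.26, 4.93, 4.28, 4.16 and 2.60 TPM, above all other animals. The 4277-base transcript lay between 0.582 and 0.969 TPM at 9 h and reached 2.31, 3.75, 2.44, 3.34 and 2.49 TPM with the high dose at 33 h. Animal 48 of the low dose, at 2.11 TPM, approached that range, and the other 4 low-dose animals had 0.672 to 1.04 TPM.

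The 3369-base, 2196-base and 2493-base members varied more among the high-dose animals. The 3369-base transcript had 2.71, 7.38, 2.62, 5.84 and 2.19 TPM in animals 53 to 57, against 0.321 to 0.797 TPM with vehicle. The 2196-base transcript had 2.05, 5.04, 2.49, 4.96 and 2.30 TPM against 0.383 to 0.623 TPM, and the 2493-base transcript 1.34, 5.06, 3.02, 4.52 and 1.66 TPM against 0.476 to 1.01 TPM. In each of the 3, animals 54 and 56 were the highest.

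The ratio of the mean TPM of the high dose to vehicle at 33 h, taken without the added 1 TPM, was largest for the 3369-base member, at 7.37. It was 6.79 for the 2196-base member and 5.97 for the 1103-base one. Over the 17 members it ran from 2.30 to 7.37 with a median of 3.78.

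The 1778-base, 1241-base, 1101-base and 384-base members were uneven within groups. The 1778-base transcript had 0.215, 11.9, 4.06, 2.73 and 5.24 TPM with the high dose at 33 h, so that animal 53 was below 4 of the 5 vehicle animals. The 1241-base transcript was listed at 0 in high-dose animal 57 and had 3.65 to 7.89 TPM in the other 4. The 1101-base transcript was listed at 0 in vehicle animals 43 and 46 of 33 h, while the other vehicle animals of that time had 2.85, 3.70 and 5.30 TPM.

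The 384-base member, the shortest, was measured by few reads. It had 2.76, 2.72, 8.79, 9.29 and 4.12 TPM with the high dose at 33 h, from 12 to 40 counts. Together with the 3369-base member, which was listed at 0 in low-dose animal 51, these 4 made 5 of 17 members (29.4%) with a library at 0 counts and a library of at least 20 counts in the same group. The share was 7.01% of the 571 rises and 4.89% of the 17560 transcripts. Kallisto divides reads among similar transcripts, and the part of that division in these zeros was not tested.

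The other 5 members were separate from vehicle at 33 h in every animal. The 915-base member had 1.66 to 6.29 TPM with the high dose against 0.507 to 0.776 TPM with vehicle, and the 1121-base member 1.52 to 4.41 against 0.545 to 1.07 TPM. The 1748-base member had 3.42 to 7.30 against 1.19 to 2.96 TPM. The 2682-base member had 2.57 to 4.11 against 0.799 to 1.43 TPM, and the 4371-base member 2.50 to 3.66 against 0.548 to 1.01 TPM.

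In all, every high-dose animal exceeded every vehicle animal of 33 h in 14 of 17 members, against a background of 19.2% of the 17560 transcripts. The 3 exceptions were the 1778-base, 1241-base and 1101-base members. In 10 members the high-dose animals also exceeded every low-dose animal of 33 h (11.3% of all transcripts), and in 10 they exceeded all 25 other animals (4.44% of all). The rule used the means of these groups, so the counts describe the members and are no test of them.

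All 17 members passed the filter on low counts, which used the 30 animals of all groups. With the high dose against vehicle at 33 h, 14 of 17 were called by edgeR at an adjusted p of at most 0.1, all upward, where 25.1% of the 19729 transcripts were called upward. Member log2 fold changes ran from 1.16 to 2.83 with a median of 1.87. The 384-base member missed the threshold narrowly (log2 fold change 1.63, SE 0.738, edgeR adjusted p = 0.101). The 1241-base and 1101-base members missed it with 1.73 (SE 1.02) and 1.49 (SE 0.988), edgeR adjusted p = 0.207 and 0.263.

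Directly between the doses at 33 h, 12 members were called higher with the high dose and none lower, where 13.7% of all transcripts were called higher. The rule set a high L at one dose and a low L at the other against the same vehicle animals, so this direction was fixed by the choice. The log2 fold changes ran from 0.83 to 2.79 with a median of 1.34. The members not called were the 1778-base, 384-base, 1241-base, 1101-base and 1748-base ones, of which the 1748-base transcript had a log2 fold change of 0.87 (SE 0.353, edgeR adjusted p = 0.108).

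The effect of the high dose at 33 h exceeded that at 9 h in 13 members by the contrast over 4 groups (10.2% of all transcripts went that way and 10.3% the other), by 1.02 to 2.70 on the log2 scale among those called. The rule asked for a high value at 33 h and a low one at 9 h, so this count too is a description. In all 3 of these comparisons 12 members were called upward (4.54% of all transcripts), and 3 (384, 1241 and 1101 bases) were called in none (43.9% of all).

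**Figure D3:**
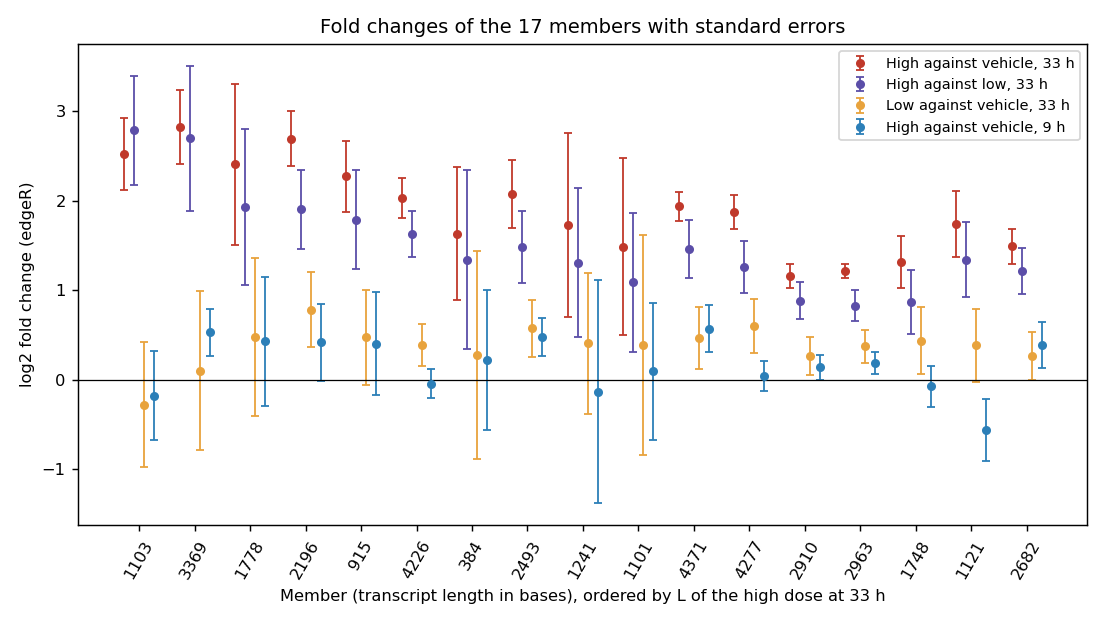
Log2 fold changes (points) with standard errors (bars) from edgeR for the 17 members, ordered by L, in 4 comparisons given by colour. The high dose at 33 h lies between 1.16 and 2.83 against vehicle and between 0.83 and 2.79 against the low dose, the low dose at 33 h lies between -0.28 and 0.78, the high dose at 9 h between -0.56 and 0.57, and the 3369-base, 1778-base, 384-base, 1241-base and 1101-base members have long bars.

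In the other 3 treated groups L of most members was positive but within the limit, and by edgeR none was called. The limit on L made a call there less likely. With the low dose at 33 h, L was positive in 16 of 17 members with a median of 0.22, where 39.0% of the 9965 transcripts within the same 3 limits had a positive L and their median was -0.03. At 9 h, 13 members were positive with each dose, with medians of 0.14 for the low and 0.20 for the high dose. The corresponding shares of the 9965 transcripts were 64.3% and 56.8%. Members were chosen for a high level over the same 33 h vehicle mean, which also enters the low-dose L, so its sign at 33 h is no evidence of a rise.

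Without the added 1 TPM, the ratio of the low-dose mean to the vehicle mean at 33 h had a median of 1.30 and reached 1.69 in the 2196-base member. It was at least 1.2 in 13 members. At 9 h the median ratios were 1.204 (low dose) and 1.18 (high dose), with 10 and 8 members at 1.2 or more.

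By edgeR, 0 of 17 members were called with the low dose at 33 h, where 0.476% of all transcripts were called upward and 0.421% downward, and none had an unadjusted p under 0.05. The smallest adjusted p was 0.352, the median log2 fold change was 0.39, and 16 of 17 were positive. The 95% confidence interval of the log2 fold change reached 1 or more in 13 members, so for those a doubling at the low dose lay within the error of 5 animals. It stayed under 1 in 4 members, of 4226, 2910, 2963 and 2682 bases. DESeq2 called no member either, where it called 4.06% of all transcripts upward and 3.44% downward. Without animal 49, edgeR called 1 member upward, where 5.22% of all transcripts were called upward.

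At 9 h edgeR likewise called 0 members with the low dose (smallest adjusted p = 0.106, background 11.7% upward) and 0 with the high dose (smallest adjusted p = 0.125, background 16.9% upward). In each, 1 member had an unadjusted p under 0.05. The intervals reached 1 or more in 7 and 8 members. For the low dose, DESeq2 called 1 member upward (13.5% of all transcripts), and edgeR called 1 upward without vehicle animal 31 (10.8%) or without low-dose animal 33 (14.1%) and 1 downward without vehicle animal 32 (9.03% downward). For the high dose, DESeq2 called 0 (17.8% of all transcripts upward and 18.4% downward). There edgeR called 3 members upward without high-dose animal 41 (19.0% of all transcripts), and 1 without high-dose animal 39 (18.2%) or without vehicle animal 60 (13.8%). These member counts were near or below the shares of all transcripts in the same fits. The limit on L at 9 h made such calls less likely, so the counts are a description. With only 9 h vehicle animals 31 and 32, edgeR called 0 members with either dose, and 0.208% (low dose) and 0.466% (high dose) of all transcripts upward. With only animals 58 to 60 it called 1 member downward with the low dose (6.52% downward) and 0 with the high dose (13.1% upward). Between the doses at 9 h, 0 members and 0 of the 19729 transcripts were called by edgeR, 1 member and 638 transcripts had an unadjusted p under 0.05, and DESeq2 called 14 transcripts but no member.

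The rule set no limit on the difference between the vehicle groups, but both vehicle means were its denominators, so this comparison too is a description. From 9 to 33 h after saline, 0 of 17 members were called by edgeR, and none had an unadjusted p under 0.05. Of all transcripts, 0 (0%) were called upward or downward by edgeR, 2311 had an unadjusted p under 0.05, and DESeq2 called 254 up and 328 down but no member. With only animals 58 to 60 as the 9 h group, edgeR called 324 up and 286 down, and with only animals 31 and 32 it called 0 up and 1 down, in both with no member. The member log2 fold changes ran from -0.56 to 0.51 with a median of 0.07.

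For the better measured members the interval of this difference was narrow. That of the 2910-base transcript ran from -0.37 to 0.19, and that of the 2963-base transcript from -0.07 to 0.36. In 6 members it reached 1 or more. The 1103-base transcript was among these, with a log2 difference of 0.51 and an interval from -0.66 to 1.68.

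The animals of the low dose at 33 h did not behave alike over the members. The median over the 17 members of the log2 difference from the vehicle mean was 0.63 in animal 48, -0.27 in animal 49, 0.12 in animal 50, 0.21 in animal 51 and 0.24 in animal 52. Animal 48 exceeded every vehicle animal of 33 h in 15 members and was the highest of its group in 13. Animal 49 exceeded all vehicle animals in none and was the lowest of its group in 11.

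The medians over the other rises had the same order of animals. The median over the 554 other rises was 1.03 in animal 48, -0.15 in animal 49, 0.22 in animal 50, 0.43 in animal 51 and 0.82 in animal 52. Over all 17560 transcripts, animal 48 exceeded every vehicle animal in 24.3% and animal 49 in 8.84%, against 14.5%, 23.9% and 22.3% in animals 50, 51 and 52. The median L of the members at the low dose was 0.10 without animal 48, with 14 members positive, and 0.30 without animal 49, with 16 positive. These omissions were chosen after the values of both animals were seen.

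With the low dose at 33 h, no member had all 5 animals above all vehicle animals (0.866% of all transcripts did). At least 1 low-dose animal was above all vehicle animals in 16 members (48.6% of all transcripts). In 8 members 3 were (13.3% of all had at least 3). The members were chosen for a high level over these same vehicle animals, so an excess over these shares is no evidence of a rise.

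Among the high-dose animals of 33 h, the median over the members was 0.91 in animal 53, 1.55 in animal 54, 1.21 in animal 55, 1.46 in animal 56 and 0.95 in animal 57. Animal 54 was the highest of its group in 12 members, and animals 53 and 57 were the lowest in 9 and 5. Animals 54 and 56 exceeded every vehicle animal in all 17 members, animals 53 and 55 in 16 and animal 57 in 15. Over all transcripts the shares were 27.3%, 36.4%, 37.9%, 39.9% and 30.8% in animals 53 to 57. The lowest high-dose animal, at 0.91, stood above the highest low-dose animal, at 0.63. The rule asked for a high L with the high dose and a low L with the low dose, so the choice favoured this gap. Over the 554 other rises the lowest high-dose median was 1.22 (animal 57) and the highest low-dose median was 1.03 (animal 48).

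The high-dose animals of 9 h lay near vehicle over the members. Their medians were 0.24 in animal 38, 0.11 in animal 39, 0.20 in animal 40, -0.09 in animal 41 and 0.22 in animal 42. They exceeded every vehicle animal of 9 h in 7, 4, 6, 0 and 8 members, while over all transcripts the shares were 37.1%, 33.3%, 32.9%, 18.3% and 31.7%. Animal 41 was the lowest of its group in 9 members and had the smallest share of raised transcripts overall.

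The spread within the high-dose group depended on the member. The SD over the 5 animals was 4.08% of the mean for the 2963-base member and 90.5% for the 1778-base member, with a median of 44.5%. The highest animal held between 21.4% and 49.3% of the sum of the 5 values.

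**Figure D4:**
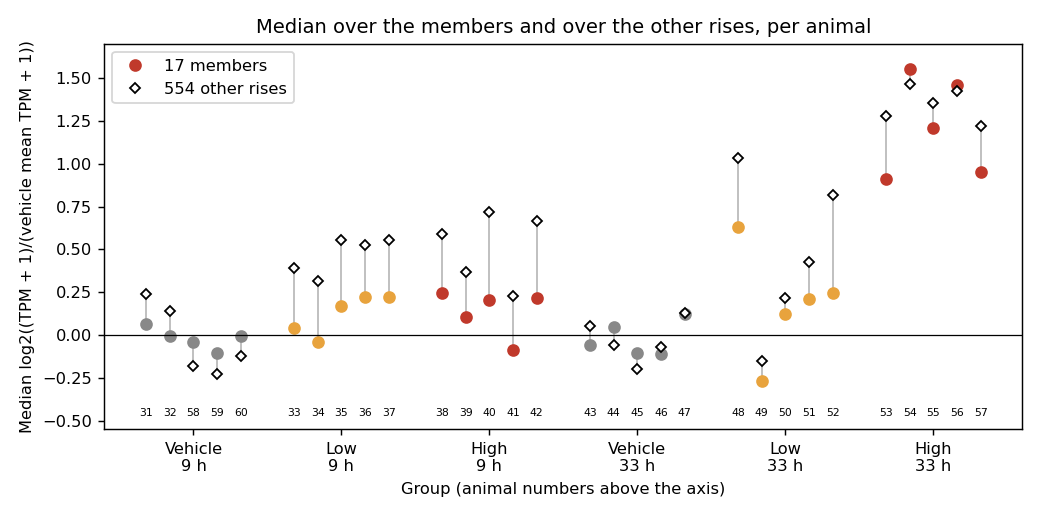
Median log2 difference from the vehicle mean of the same time in each animal, over the 17 members (filled circles) and over the 554 other rises (open diamonds), with animal numbers along the axis. The members stay between -0.11 and 0.24 in the animals of 9 h, where the rule limited their means. They spread from -0.27 to 0.63 with the low dose at 33 h and lie at 0.91 to 1.55 with the high dose at 33 h. Among treated animals of 9 h, the member medians are below 0 only in animals 34 and 41. The medians of the other rises are above 0 in all treated animals of 9 h.

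To measure the rise in animals that took no part in the choice, the rule was applied without 1 high-dose and 1 vehicle animal of 33 h, for each of the 25 pairs, and the left-out animals were then compared. Between 8 and 19 transcripts met the rule each time. Pooled over pairs, 94.2% of them were higher in the left-out high-dose animal than in the left-out vehicle animal, with a range over pairs of 72.7% to 100%. The same share over all transcripts with the vehicle minimum was 42.4% to 62.5%, and it was exceeded in all 25 pairs. With TPM divided by edgeR's library factors the pooled share was 95.9%. The pairs share animals, and no test was made of them.

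The same count for the low dose differed widely between animals. When 1 low-dose and 1 vehicle animal of 33 h were left out, 81.6% of the transcripts so chosen were higher in the left-out low-dose animal, with a range of 14.3% to 100%. The share over all transcripts had a median of 45.6% over the pairs and was exceeded in 22 of 25. The share was 98.6% for animal 48, 75.0% for animal 50, 76.6% for animal 51, 88.4% for animal 52 and 26.8% for animal 49. Most transcripts selected as flat at the low dose were thus higher than in the vehicle animal in left-out animals 48, 50, 51 and 52. In animal 49 most were not. The pooled share leans on animal 48, whose pairs held 23 to 32 transcripts each, against 6 to 10 for animal 49.

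Membership depended on single animals. Leaving out each of the 30 animals in turn gave between 9 and 28 transcripts. The extremes came from the same low-dose group, with 28 transcripts (14 of them members) without animal 48 and 9 (8 of them members) without animal 49. The 4226-base member was kept in all 30 selections, 5 members were kept in at least 27, and the least stable members, of 2196 and 1748 bases, in 19. The median member was kept in 26.

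**Figure D5:**
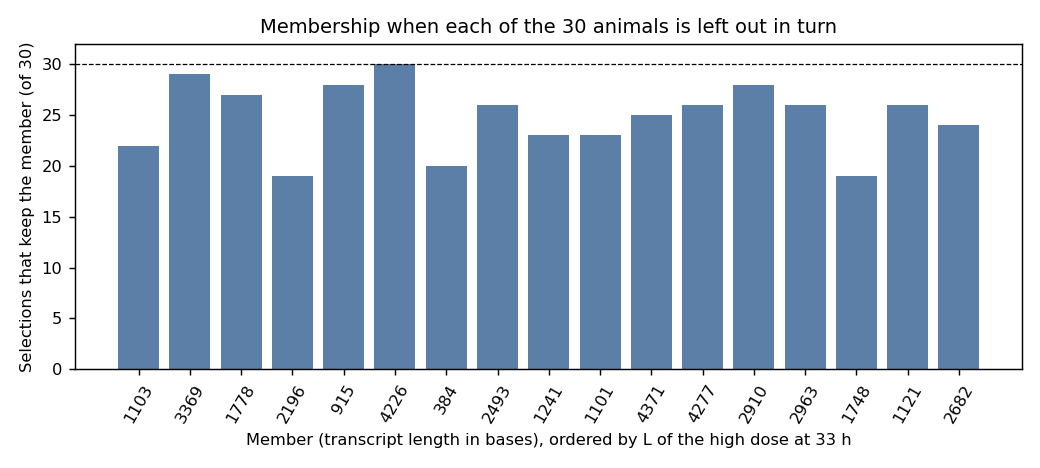
Number of the 30 selections, each made without 1 animal, in which each member still met the rule (bars, from 0, with a dashed line at 30). The bars run from 19 for the 2196-base and 1748-base members to 30 for the 4226-base member.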

How the data were processed

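RNA sequencing of kidney from 30 guinea pigs was used (75-base paired reads, stranded poly-A libraries). Quantification by the authors used kallisto 0.42.4 (version from the submitters' processing notes) and the Ensembl guinea pig transcriptome, whose release is not given in the sources used here. The estimated counts were deposited without normalization and include fractions. The deposited TPM values are scaled for effective length and to a fixed total per library. Groups came from the sample labels.

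The rule used TPM as deposited. Tests used estimated counts rounded to whole numbers in R 4.3.3 with edgeR 4.0.16 (filterByExpr over all animals, TMM, glmQLFit and glmQLFTest, only the compared groups in the fit), which tested 19729 transcripts, and calls were made at a Benjamini-Hochberg adjusted p of at most 0.1. The standard error is the fold change divided by the square root of F, and intervals used the t quantile at edgeR's total degrees of freedom. Alternatives were DESeq2 1.42.0, RLE normalization, no filter, all animals in 1 fit, an adjusted p of 0.05, other settings of the rule and leaving out each animal. Apart from the high dose at 33 h, the comparisons of a single dose with vehicle were added after the data were seen. The contrast between times was also added then, as was the split of the 9 h vehicle animals by number. The alternatives of these comparisons, added then too, were leaving out each animal and, except for the contrast between times, DESeq2.

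The members and lists were chosen with earlier results of these data known. The member with the largest L and that with the highest high-dose level were to be named, and both were the same transcript. Gene lists and cell type markers, given by symbol, could not be applied, and no sequences are printed. No Sleuth test, which the study names, was run. In vitro samples were not analysed here.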

Additional observations from a re-analysis of the deposited data

Results flagged for a closer look

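A library was marked where its gap to the nearest animal of its group of 5 was large against the range of the group (Dixon's test at the 95% level). Of 114 groups of values, 7 were marked, and chance marks about 1 in 20. In the low dose at 33 h, animal 48 stood above its group for the 1103-base member ENSCPOT00000032905.1 (19.4 TPM, next 5.72) and for the 4277-base member (2.11 TPM, next 1.04). The 1121-base member was high in vehicle animal 44 of 33 h (1.07 TPM, next 0.690) and in vehicle animal 31 of 9 h (1.00 TPM, next 0.743). The 2963-base member was highest in high-dose animal 54 of 33 h (12.3 TPM, next 11.5), in a group whose values lay close together. The 4371-base member was low in low-dose animal 33 of 9 h (0.668 TPM, next 0.985). The total count of low-dose animal 51 of 33 h was low for its group (25222556, next 28450360).

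The effect of the high dose differed between 33 and 9 h in 13 members by the edgeR contrast, a difference for which the members had been chosen.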

How the results depend on the processing

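The size of the set followed the settings of the rule. In place of 17 transcripts, a pseudocount of 0.5 gave 10 (8 of them members). A limit of 0.2 on the other 3 treated groups gave 3 and a limit of 0.5 gave 101. A vehicle minimum of 1 TPM gave 7 and no minimum gave 40. A pseudocount of 2 gave 15 (7 members), group medians 17 (4 members), TPM divided by library factors 22 (13 members) and all 10 vehicle animals as control 15 (8 members). Leaving out 1 animal gave 9 to 28, and 9 h vehicle animals 31 and 32 alone gave 27 and animals 58 to 60 alone 9. The share of left-out pairs was 81.6% for the low dose against 94.2% for the high dose. For the 4 comparisons planned, the counts of members called stayed within 1.5 times under the alternatives run: leaving out 1 animal gave 14 to 15 for the high dose against vehicle at 33 h (23.3% to 24.8% of all transcripts were called upward), 9 (without high-dose animal 54) to 13 for the high against the low dose at 33 h (9.58% to 16.6%), and 0 between the vehicle groups and between the doses at 9 h. For the comparisons added later, leaving out 1 animal gave 12 to 13 members for the high-dose effect between times (8.98% to 11.0%), 0 to 1 for the low dose against vehicle at 33 h (0.0558% to 5.22% of all transcripts were called upward), 0 to 1 at 9 h (7.48% to 14.1%), and 0 to 3 for the high dose against vehicle at 9 h (11.6% to 19.0%). For the low dose at 9 h, DESeq2 called 1 upward, and edgeR with vehicle animals 58 to 60 alone called 1 downward (6.52% of all downward). The log2 fold changes of the high dose against vehicle at 33 h, without 1 animal, were 2.33 to 2.98 for ENSCPOT00000032905.1 and 1.07 to 1.24 for ENSCPOT00000003644.3. No paired analysis was possible because animal numbers are not shared between groups.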
